A study of Mus musculus with 6 samples.

Results

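The genes described here are 10 genes of iron metabolism: *Hamp* and *Hamp2*, which encode the iron hormone hepcidin and its close relative, *Tfrc* and *Tfr2*, which encode the transferrin receptors, *Trf* (transferrin), *Fth1* and *Ftl1* (the heavy and light ferritin chains), *Slc40a1* (the iron exporter ferroportin), *Hfe* (the hemochromatosis protein) and *Aco1* (iron regulatory protein 1). They were taken by symbol from the table of the genotype comparison, 10 of 54446 genes listed, and all 10 had enough counts to be tested. RNA-seq was performed on the liver of 3 WT and 3 *Fmo5*-/- mice, 1 library per mouse. All were male, on a C57BL/6J background, 32 weeks old and fed a standard chow diet, and tissue was collected in the morning. *Fmo5*-/- mice lack flavin-containing monooxygenase 5 (FMO5) in every tissue, so the design does not separate an effect in hepatocytes from an effect that reaches the liver from elsewhere. The labels give no replicate numbers, and mice 1 to 3 of each genotype are named in the order of their records.

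The liver is both the main store of body iron and the source of hepcidin, a peptide that binds ferroportin and causes its degradation, which lowers the release of iron into plasma. Hepatocytes transcribe *Hamp* in response to bone morphogenetic proteins (BMP6 and BMP2) from sinusoidal endothelial cells, acting through receptors, the coreceptor hemojuvelin and SMAD proteins, with input from HFE and transferrin receptor 2, and in response to interleukin 6 through STAT3. Inside the cell, iron regulatory proteins bind hairpins, the iron-responsive elements (IREs), in certain mRNAs. Binding in a 5′ UTR blocks translation, as for the ferritins and ferroportin, whereas binding in the 3′ UTR of *Tfrc* mRNA protects it from decay.

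Counts on genes were between 44886286 and 52338675 per library. *Fmo5* itself fell 31.9-fold, from a normalized count of 35818 ± 4978 (SD, n = 3) in WT mice to 1122 ± 63.7 in *Fmo5*-/- mice (edgeR adjusted p = 2.79e-07), and every *Fmo5*-/- library was below every WT library. Hepatocyte markers were abundant in all 6 libraries, with a summed level of 102957 to 135605 counts per 1000000 counts on genes (CPM) in WT and 105860 to 132498 in *Fmo5*-/- mice. *Fmo5*-/- mouse 3 was more often the closest to WT mice than the other *Fmo5*-/- mice were. Among 4578 genes whose libraries did not overlap between genotypes, it was the *Fmo5*-/- library nearest the WT mean for 48.2%, against 32.6% for mouse 1 and 19.3% for mouse 2. This differed between groups of genes. Of the 5 such iron genes, mouse 1 was nearest for 3 and mouse 3 for 2. Mouse 3 was nearest for 0 of the 3 such BMP-SMAD targets and for 7 of the 8 such Kupffer cell markers described below. Where leaving out *Fmo5*-/- mouse 3 changed the edgeR calls in a group of genes, results are given with and without this library. It was singled out from these same values, so the fit without it is a description and not independent support. Over all genes edgeR called 229 with all libraries, 763 without *Fmo5*-/- mouse 3 and 31 to 148 without any other single library.

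In outline, hepcidin mRNA was nearly undetectable in 2 *Fmo5*-/- mice and reduced in the other, *Tfrc* mRNA was higher in all 3, and the other 7 genes outside the hepcidin pair differed by 1.25-fold or less between genotype means. By edgeR's quasi-likelihood test 0 of the 10 genes passed an adjusted p of 0.05, against 1.37% of the 16734 genes tested. At an unadjusted p of 0.05 there were 3 of 10 (*Tfrc*, *Hfe* and *Aco1*), where 21.8% of all tested genes passed. DESeq2 called 2, *Tfrc* and *Aco1*, against 8.96% of genes, and without *Fmo5*-/- mouse 3 edgeR called 3, *Hamp*, *Hamp2* and *Tfrc*, against 4.45%. Without any other single library edgeR called 0 of the 10. The libraries of the genotypes did not overlap for 5 of the 10, against 27.4% of all tested genes. Of those 5, *Tfrc* was higher in *Fmo5*-/- mice (13.9% of all genes) and *Hamp*, *Ftl1*, *Hfe* and *Aco1* were lower (13.5%). With 3 mice against 3, an exact permutation test of a single gene cannot give a two-sided p below 0.1.

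**Figure D1:**
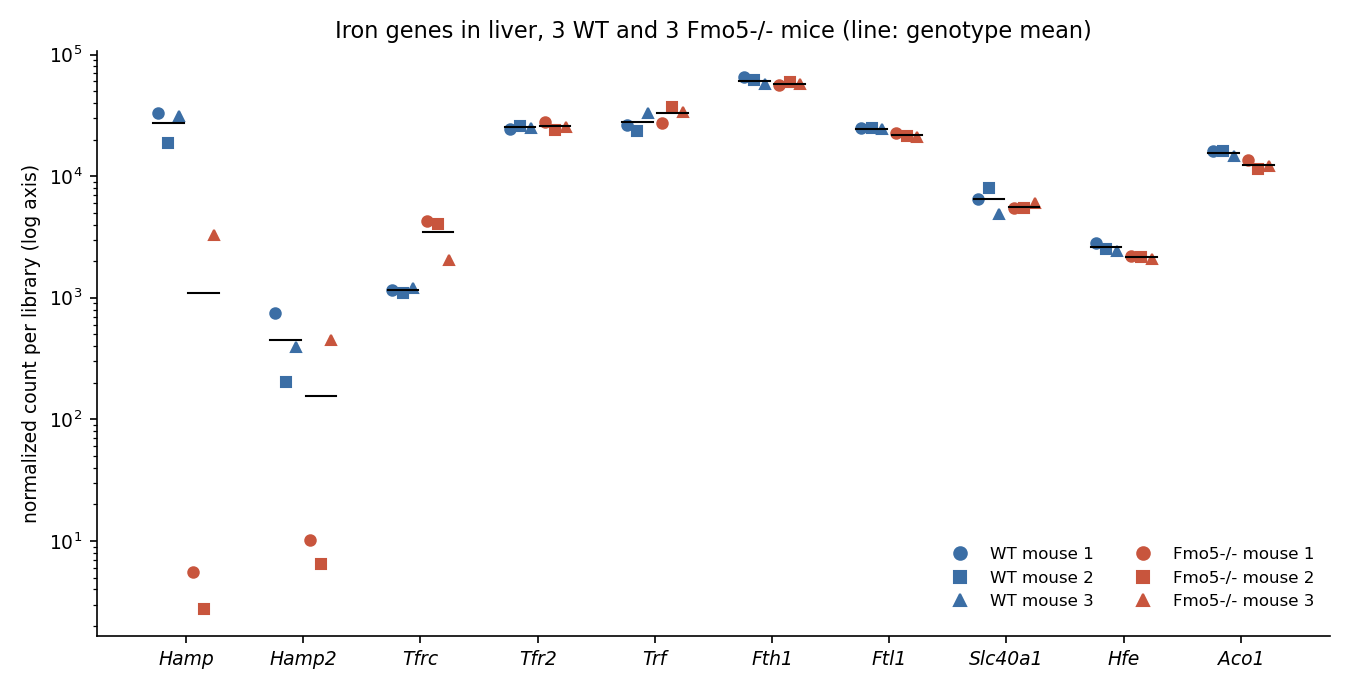
Normalized count of each of the 10 iron genes in every library (log axis), with WT mice in blue, *Fmo5*-/- mice in red and a line at each genotype mean. *Hamp* spans from 2.75 to 32972, *Tfrc* lies above all WT values in every *Fmo5*-/- mouse, and the other genes beside *Hamp2* keep within a narrow band.

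*Hamp* (chromosome 7, 30942368 to 30944032, minus strand of mm10) was the iron gene with the widest range. Its raw counts were 31134, 16888 and 30252 in WT mice and 6, 3 and 3321 in *Fmo5*-/- mice 1 to 3. All 3 *Fmo5*-/- libraries were thus below all WT libraries, but they differed among themselves far more than the WT libraries did. In WT mice this was 376 to 647 CPM. *Fmo5*-/- mouse 1 had 0.115 CPM (95% exact Poisson interval 0.0421 to 0.250) and mouse 2 had 0.0611 (0.0126 to 0.179), intervals that cover counting error only. These levels are those of a handful of reads in a whole library, whereas *Fmo5*-/- mouse 3 had 68.9 CPM (66.6 to 71.3). The normalized count of mouse 3 was 8.46-fold below the WT mean, and the lowest WT library was 5.78-fold above it. Over the genotypes the means were 27583 ± 7635 and 1090 ± 1880 (SD, n = 3 each). The log2 fold change was -4.66 ± 2.38 (SE), with a 95% interval of -11.06 to 1.73, and was not significant (edgeR adjusted p = 0.352, DESeq2 adjusted p = 0.171). Without *Fmo5*-/- mouse 3 the log2 fold change was -12.65 ± 0.48 (SE; edgeR adjusted p = 5.84e-05), a value fitted to counts near 0 that depends on the prior count. The summed hepatocyte markers overlapped between genotypes, at 102957 to 135605 CPM in WT and 105860 to 132498 CPM in *Fmo5*-/- mice. The part of cell number in the *Hamp* difference was not tested.

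*Hamp2* (chromosome 7, 30922372 to 30924681, minus strand) lies 17687 bp from *Hamp* and is its near copy, with 388 of 420 aligned transcript positions identical (92.4%). Its counts were 708, 182 and 387 in WT mice and 11, 7 and 459 in *Fmo5*-/- mice. The same *Fmo5*-/- mice that had almost no *Hamp* had the lowest *Hamp2* counts, while mouse 3 lay inside the WT range. The log2 fold change was -1.54 ± 1.56 (SE; 95% interval -5.68 to 2.6, edgeR adjusted p = 0.634) in all libraries and -5.74 ± 0.88 (adjusted p = 0.0449) without *Fmo5*-/- mouse 3. *Hamp2* made up 2.22% (Wilson 95% interval 2.07 to 2.39), 1.07% (0.923 to 1.23) and 1.26% (1.14 to 1.39) of the summed *Hamp* and *Hamp2* counts in WT mice. It was 12.1% (11.1 to 13.2) in *Fmo5*-/- mouse 3, so *Hamp* was lower there relative to *Hamp2* than in any WT mouse. In *Fmo5*-/- mice 1 and 2 the share was 64.7% (41.3 to 82.7) and 70.0% (39.7 to 89.2), but of only 17 and 10 counts. With reads of 1 strand the shares were larger in WT mice, at 3.74%, 1.98% and 2.04%. In *Fmo5*-/- mouse 3 the share was 19.1%, also larger and still above all WT mice. It was 91.7% and 66.7% in *Fmo5*-/- mice 1 and 2, again of few counts. Of the 336 stretches of 75 bases in the *Hamp* transcript, 13 also occur in *Hamp2*, and 15.3% of the *Hamp2* exon bases overlap the antisense gene *Gm44662*, where reads were not assigned to either gene. The deposited counts of *Hamp2* on each strand, which do place such reads, summed to 1350, 368 and 672 in WT mice, against the 708, 182 and 387 counts used. The log2 fold change with reads of 1 strand was -1.51 ± 1.53.

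The upstream sequences of both genes are shown because BMP-SMAD and STAT3 signals are known to act on hepcidin through elements in this region, and because both genes were lowest in *Fmo5*-/- mice 1 and 2. They were taken from RefSeq (GRCm38.p6), which holds both genes, and are written 5′ to 3′ and end at the base before the RefSeq transcription start. For *Hamp2* that start is shared by 2 of its 3 GENCODE transcripts, and the other begins 500 bases upstream, so that the window lies within the gene bounds given above. Capitals mark GGCGCC, the core of a BMP-responsive element, and TTCNNNGAA, the STAT motif. Each motif reads the same on both strands, and the 2 do not overlap.
Hamp, 250 bases, minus strand of chr7:30944030-30944279: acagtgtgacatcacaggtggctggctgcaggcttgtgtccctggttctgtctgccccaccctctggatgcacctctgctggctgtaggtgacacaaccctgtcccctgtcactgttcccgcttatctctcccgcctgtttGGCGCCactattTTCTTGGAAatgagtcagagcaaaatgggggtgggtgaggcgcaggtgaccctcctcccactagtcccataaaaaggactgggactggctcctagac
Hamp2, 250 bases, minus strand of chr7:30924182-30924431: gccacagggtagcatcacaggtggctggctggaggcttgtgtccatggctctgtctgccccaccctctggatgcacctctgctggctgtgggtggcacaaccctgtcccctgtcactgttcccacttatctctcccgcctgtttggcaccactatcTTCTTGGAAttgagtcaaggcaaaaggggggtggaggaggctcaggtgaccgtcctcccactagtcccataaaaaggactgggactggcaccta
In *Hamp*, GGCGCC lay 109 to 104 bases upstream of the start and the STAT motif, as TTCTTGGAA, 97 to 89 bases upstream. In *Hamp2* the STAT motif lay 94 to 86 bases upstream and GGCGCC did not occur. The windows were identical at 227 of 253 aligned positions (89.7%). Of 32851 such windows of mouse genes, 9.59% held GGCGCC, 7.02% held TTCNNNGAA and 0.368% held both. These are matches of letters, and no binding was measured.

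Genes of the BMP-SMAD pathway that drives *Hamp* were mostly lower in *Fmo5*-/- mice. Of 12 genes for ligands, coreceptors, receptors and SMADs, 10 were lower, 0 were called by edgeR and 3 (*Bmp6*, *Bmp2* and *Hfe2*) by DESeq2, which called 8.96% of all genes. At an unadjusted p of 0.05 there were 5 of the 12, against 21.8% of all tested genes. Their median log2 fold change was -0.18, where that of all tested genes was 0.01. For 4 of the 12, all lower, the genotypes did not overlap, against 13.5% of all genes in that direction. *Bmp6*, the ligand that reports iron stores, had normalized counts of 215, 360 and 216 in WT mice and 98.7, 110 and 162 in *Fmo5*-/- mice. All *Fmo5*-/- values were below all WT values, with mouse 3 again the highest of its genotype. The log2 fold change was -1.09 ± 0.26 (SE; edgeR adjusted p = 0.0710, DESeq2 adjusted p = 0.00109), and edgeR called it without *Fmo5*-/- mouse 3 (adjusted p = 0.0281). *Bmp2*, the other endothelial ligand, was 499, 799 and 528 in WT mice and 452, 328 and 445 in *Fmo5*-/- mice (log2 fold change -0.58 ± 0.20, edgeR adjusted p = 0.153, DESeq2 0.0477). *Hfe2*, which encodes hemojuvelin and was chosen for naming after its values were seen, had a log2 fold change of -0.39 ± 0.10 (edgeR adjusted p = 0.0763, DESeq2 0.00995). It lies on chromosome 3 (96525172 to 96529210), near the targeted gene *Fmo5* (97628804 to 97655282). The part of this linked position in the *Hfe2* difference was not tested. The receptor and SMAD genes were closer to WT levels: the 2 highest were *Acvr1* at 0.16 ± 0.09 and *Smad5* at 0.08 ± 0.10. *Bmpr2* (-0.29 ± 0.12) and *Bmpr1a* (-0.19 ± 0.08), named after their values were seen, had an unadjusted p below 0.05 by edgeR but were not called.

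All 7 genes listed as targets of BMP-SMAD signalling in hepatocytes or endothelium had lower means in *Fmo5*-/- mice, and their median difference was -0.68 on the log2 scale. EdgeR called 0 of the 7 (3 at an unadjusted p of 0.05, against 21.8% of all genes) and DESeq2 called 2, *Id1* and *Atoh8* (8.96% of all genes). *Id1*, an inhibitor of DNA binding that BMPs induce, had normalized counts of 495, 270 and 383 in WT mice and 105, 197 and 183 in *Fmo5*-/- mice. The genotypes were separate, and the log2 fold change was -1.24 ± 0.29 (edgeR adjusted p = 0.0710, DESeq2 0.00014). *Atoh8*, a transcription factor reported to act on *Hamp*, was 936, 667 and 1086 in WT and 574, 361 and 471 in *Fmo5*-/- mice (-0.94 ± 0.22, edgeR adjusted p = 0.0736, DESeq2 0.000285). Of the 7819 genes that reached a mean of 500, *Id3* had the pattern across the 6 libraries nearest to that of *Hamp2*, at a root mean square difference of 1.80 in centred log2 CPM, which is not a close match. Normalized counts in WT mice were 3308, 3182 and 2734. In *Fmo5*-/- mice 1 and 2 they were 757 and 1112, and in mouse 3 the count was 3200. That mouse thus had a WT level of *Id3* but not of *Id1* (183) or *Atoh8* (471). Over all libraries *Id3* did not pass the test (-0.86 ± 0.59, edgeR adjusted p = 0.471), and without *Fmo5*-/- mouse 3 it was -1.72 ± 0.17 (adjusted p = 0.00274). *Id2*, named after its values were seen, likewise was 6000 in mouse 3 and 2854 and 3220 in the other *Fmo5*-/- mice, where the lowest WT library had 5911. Without that library the median of the 7 targets was -0.94, and edgeR called 2 of them, *Id2* and *Id3*, against 4.45% of all genes.

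**Figure D2:**
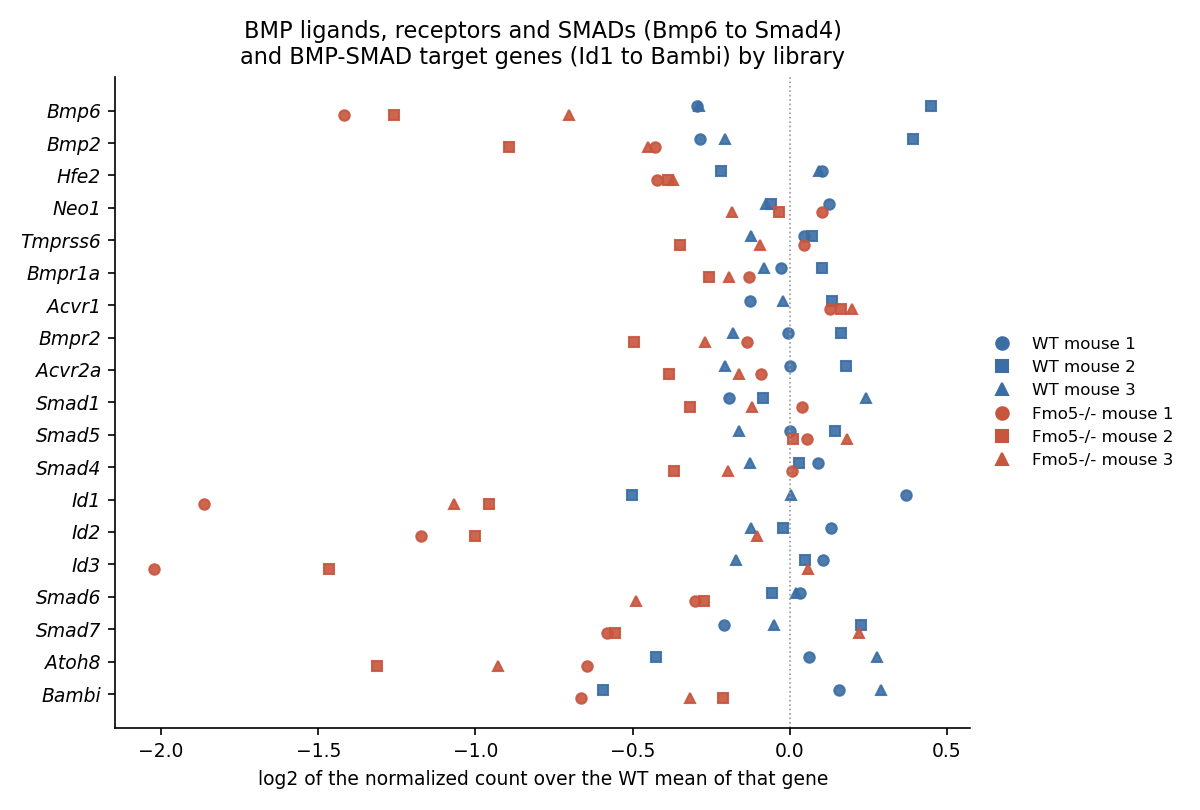
Each library's normalized count over the WT mean of that gene, on a log2 scale, for 12 genes of BMP ligands, receptors and SMADs and 7 BMP-SMAD target genes, with WT mice in blue and *Fmo5*-/- mice in red. *Fmo5*-/- mice 1 and 2 lie far to the left for *Bmp6*, *Id1*, *Id2* and *Id3*, while mouse 3 (triangle) lies with WT mice for *Id2*, *Id3* and *Smad7* and apart from them for *Bmp6*, *Id1* and *Atoh8*.

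Genes of the inflammatory input to hepcidin lay on both sides of 0. Of 8 genes of the interleukin 6 and STAT3 route, 5 were higher and 3 lower in *Fmo5*-/- mice (median log2 fold change 0.24). Neither edgeR (0 at an unadjusted p of 0.05, against 21.8% of all genes) nor DESeq2 (8.96%) called any of them. The genotypes overlapped for all 8, where 27.4% of all genes did not overlap. *Il1b*, an inflammatory cytokine, had the highest value (0.76 ± 0.48, edgeR adjusted p = 0.417), followed by *Socs3*, a STAT3-induced inhibitor (0.68 ± 0.36, adjusted p = 0.337). *Jak1* and *Il6st*, which encode the kinase and the shared receptor chain of the route, were at -0.12 ± 0.08 and -0.08 ± 0.10. Among 11 acute-phase genes, 7 were higher and edgeR called 0 (3 at an unadjusted p of 0.05, near the 21.8% of all genes). For 4 of the 11, all higher, the genotypes did not overlap, against 13.9% of all genes in that direction. The largest difference was *Saa3*, a serum amyloid A gene, at 2.42 ± 0.49 (edgeR adjusted p = 0.0776, DESeq2 0.000236). Of the signals from red cell production, *Fgl1*, which encodes a hepatokine that suppresses hepcidin, had normalized counts of 9088, 14152 and 8858 in WT and 16436, 16388 and 13859 in *Fmo5*-/- mice (0.54 ± 0.18, edgeR adjusted p = 0.141, DESeq2 0.0379). *Fmo5*-/- mouse 3 lay just below the highest WT mouse. *Gdf15*, a stress-induced cytokine, was at 0.30 ± 0.50 (adjusted p = 0.789). *Erfe* (erythroferrone) had 0 to 2 counts per library and *Epo* (erythropoietin) 0 or 1, which was too few to test.

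*Tfrc* (chromosome 16, 32608920 to 32632794, plus strand) encodes transferrin receptor 1, which takes up transferrin-bound iron. Its normalized counts were 1164, 1098 and 1200 in WT mice and 4287, 4066 and 2051 in *Fmo5*-/- mice. Every *Fmo5*-/- library was above every WT library, by at least 1.71-fold, and mouse 3 again lay between WT mice and the other *Fmo5*-/- mice. The means were 1154 ± 51.9 and 3468 ± 1232 (SD, n = 3 each), a ratio of 3.01. The log2 fold change of 1.59 ± 0.28 (SE; 95% interval 0.92 to 2.26) was just outside the threshold by edgeR (adjusted p = 0.0554) and well inside it by DESeq2 (adjusted p = 3.31e-10). Without *Fmo5*-/- mouse 3 it was 1.85 ± 0.09 (edgeR adjusted p = 3.34e-05). By the root mean square difference of centred log2 CPM over the 6 libraries, the genes with the pattern most like that of *Tfrc*, of the 7818 others that reached a mean of 500, were *Itgb2*, an integrin chain of leukocytes (0.168), *Sirpa*, a receptor abundant on myeloid cells (0.175), and *Gbp3*, a guanylate-binding protein induced by interferon (0.182). For *Hamp* the nearest of these genes were *Selenbp2*, *Fmo5* and *Mme*, at 3.31 to 3.95, and *Hamp2*, whose mean was below 500, lay at 3.08. None of these is a close match. *Selenbp2* and *Mme* lie on chromosome 3, as does the targeted gene *Fmo5*. In *Fmo5*-/- mice 1 to 3 the normalized counts were 177, 202 and 453 for *Selenbp2*, 1071, 1102 and 1194 for *Fmo5*, and 188, 92.7 and 98.2 for *Mme*. None of the 3 had a spread like that of *Hamp*.

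Markers of Kupffer cells, the resident macrophages that recycle iron from red cells, had higher means in *Fmo5*-/- mice, as *Tfrc* did. This held for 9 of 9 markers (median log2 fold change 0.98), and none was at 0 in any genotype. Their summed level was 192 to 236 CPM in WT mice and 307 to 548 CPM in *Fmo5*-/- mice, with mouse 3 the lowest of its genotype. EdgeR called 1, *Clec4f* (0.70 ± 0.11, adjusted p = 0.0275), and DESeq2 called 8, against 1.37% and 8.96% of all genes. *Clec4f*, a lectin that defines mouse Kupffer cells, was 3787, 3768 and 3140 in WT and 5907, 6327 and 5085 in *Fmo5*-/- mice. *Marco*, a scavenger receptor, had 721, 468 and 790 in WT mice. It reached 4989 and 3710 in *Fmo5*-/- mice 1 and 2 and stood at 676 in mouse 3. *Cd5l*, a secreted macrophage protein, was 2695 ± 414 and 6430 ± 1903 (1.25 ± 0.24, edgeR adjusted p = 0.0564). Without *Fmo5*-/- mouse 3 edgeR called 8 of the 9, against 4.45% of all genes. The part of these cells in the *Tfrc* difference was not tested. The summed endothelial markers were 185 to 215 CPM in WT and 191 to 196 CPM in *Fmo5*-/- mice, and those of stellate cells 231 to 260 and 227 to 324. For 3 of the 7 endothelial markers the genotypes did not overlap (1 higher, 2 lower), against 27.4% of all genes. EdgeR called 0 of them and DESeq2 called 1. Without *Fmo5*-/- mouse 3 edgeR called 1, *Fcgr2b*, at -0.55 ± 0.11 (adjusted p = 0.0281). Erythroid markers, which report blood in the tissue, were 98.9 to 180 CPM in WT mice and 324, 113 and 125 in *Fmo5*-/- mice, so that only mouse 1 was above WT mice.

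**Figure D3:**
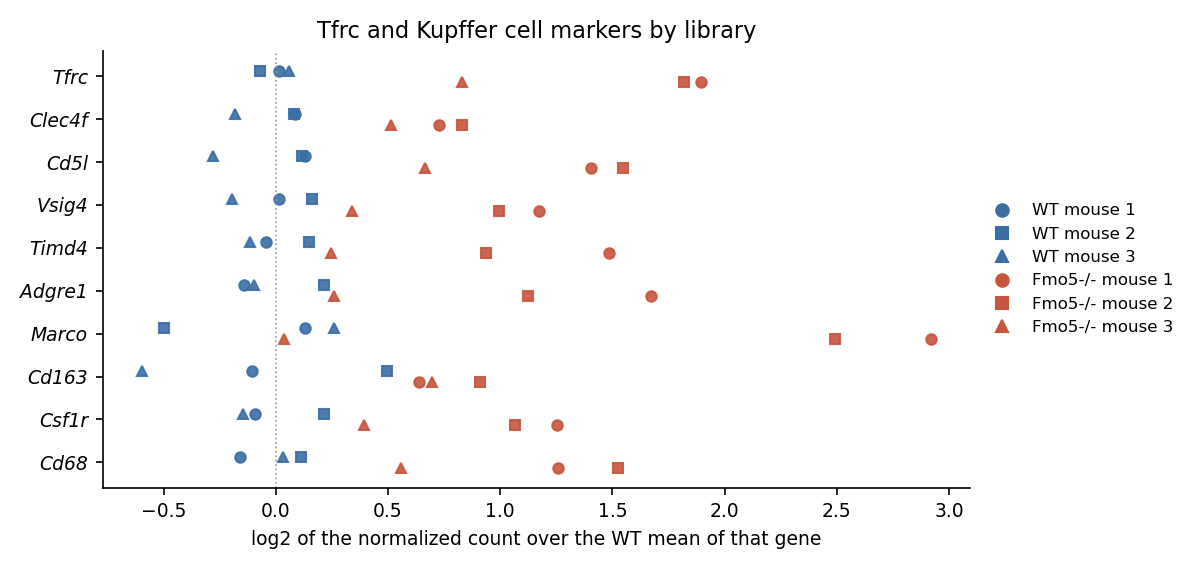
Each library's normalized count over the WT mean of that gene, on a log2 scale, for *Tfrc* and 9 Kupffer cell markers, with WT mice in blue and *Fmo5*-/- mice in red. *Fmo5*-/- mice 1 and 2 lie to the right of all WT mice for every gene, and mouse 3 (triangle) lies between them and WT mice for *Tfrc* and for most markers, and among WT mice for *Marco*.

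The iron-responsive elements of the 4 genes in which they were found are shown because *Tfrc*, with its hairpins in the 3′ UTR, differed in mRNA level while *Fth1*, *Ftl1* and *Slc40a1*, with a hairpin in the 5′ UTR, differed little. The search was for the loop CAGTGN closed by a stem of 5 base pairs with an unpaired C before its 5′ arm, in the sense strand of annotated transcripts, and capitals mark the loop. The pattern occurred in 1.34% of 21901 protein-coding genes. Coordinates are mm10.
Fth1, 5′ UTR, chr19:9982732-9982760, plus strand: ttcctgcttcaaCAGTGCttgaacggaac
Ftl1, 5′ UTR, chr7:45459779-45459807, minus strand: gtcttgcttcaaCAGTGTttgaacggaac
Slc40a1, 5′ UTR, chr1:45925465-45925493, minus strand: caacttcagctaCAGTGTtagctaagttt
Tfrc, 3′ UTR, chr16:32631219-32631247, plus strand: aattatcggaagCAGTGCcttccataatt
Tfrc, 3′ UTR, chr16:32631598-32631626, plus strand: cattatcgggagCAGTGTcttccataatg
Tfrc, 3′ UTR, chr16:32631663-32631691, plus strand: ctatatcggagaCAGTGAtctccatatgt
Tfrc, 3′ UTR, chr16:32631710-32631738, plus strand: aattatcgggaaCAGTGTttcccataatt
*Tfrc* held 4 matches within its 3′ UTR and the other 3 genes 1 each. *Hamp*, *Hamp2*, *Tfr2*, *Trf*, *Hfe* and *Aco1* held none of these letters in the searched transcripts. RNA-seq reads mRNA level only, and translation from the 5′ UTR genes was not measured.

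The ferritin genes were among the most abundant. *Fth1* (chromosome 19, 9980598 to 9985098) had normalized counts of 64906, 61141 and 56971 in WT and 56429, 59332 and 57094 in *Fmo5*-/- mice. The genotypes overlapped (log2 fold change -0.08 ± 0.09, 95% interval -0.29 to 0.12, edgeR adjusted p = 0.645). *Ftl1* (chromosome 7, 45457944 to 45459884) was 24684, 24678 and 24187 in WT and 22450, 21553 and 20962 in *Fmo5*-/- mice. All 3 *Fmo5*-/- libraries were lower, by little (-0.18 ± 0.08, 95% interval -0.36 to 0.00, adjusted p = 0.241), and with reads of 1 strand the value was -0.31 ± 0.09 (edgeR adjusted p = 0.110). Its reads are hard to place, since 84.8% of the 75-base stretches of its transcript also occur in other annotated genes, most of them pseudogenes, against 3.86% for *Fth1*. Among these genes, *Gm10252* and *Gm22133* share 34.6% of the *Ftl1* exon bases at the locus itself. Summing the listed pseudogene copies changed neither call, but could hardly do so. The largest of these copies, *Ftl1-ps1*, had 62 to 86 counts per library. Reads mapping to several places were not counted, and not every gene with shared stretches was summed, so the effect of misplaced reads was not tested. *Slc40a1* (chromosome 1, 45908068 to 45926523), the target of hepcidin at the protein level, had 6512, 7943 and 4906 in WT and 5436, 5439 and 5963 in *Fmo5*-/- mice. WT mice varied more than *Fmo5*-/- mice and enclosed them (-0.20 ± 0.16, 95% interval -0.56 to 0.16, adjusted p = 0.502). Leaving out WT mouse 2 gave -0.022 and leaving out WT mouse 3 gave -0.36, neither past the threshold. *Ncoa4*, the receptor that delivers ferritin to autophagy, was the lowest of the 5 tested genes of ferritin handling. It had 1625, 1683 and 1397 in WT and 1185, 913 and 1135 in *Fmo5*-/- mice, with no overlap (-0.54 ± 0.12, edgeR adjusted p = 0.0563, DESeq2 0.00303). The other 4 lay between -0.16 (*Pcbp2*, an iron chaperone) and 0.04 (*Ftl2-ps*, a pseudogene), and edgeR called 0 of the 5 (1 at an unadjusted p of 0.05, near the 21.8% of all genes).

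The upstream iron sensors differed little. *Tfr2* (chromosome 5, 137569840 to 137587481) encodes the hepatocyte sensor of transferrin saturation. Its normalized counts were 24594, 26042 and 24819 in WT and 27997, 24130 and 25352 in *Fmo5*-/- mice, overlapping ranges (0.04 ± 0.09, 95% interval -0.17 to 0.24, edgeR adjusted p = 0.850). *Hfe* (chromosome 13, 23702034 to 23710854), whose product binds both transferrin receptors, was 2820, 2539 and 2428 in WT and 2217, 2172 and 2065 in *Fmo5*-/- mice. The genotypes did not overlap, and the difference did not pass the threshold (-0.27 ± 0.08, 95% interval -0.46 to -0.08, edgeR adjusted p = 0.110, DESeq2 0.0709). *Trf* (chromosome 9, 103204001 to 103230444), which encodes the plasma carrier of iron, was 26480, 23687 and 32855 in WT and 27533, 37211 and 33831 in *Fmo5*-/- mice, with overlap (0.25 ± 0.15, 95% interval -0.09 to 0.58, adjusted p = 0.375). Of its exon bases 63.5% are shared with *Gm20425*, an overlapping gene on the same strand, so its counts come from the rest. Leaving out WT mouse 2 or *Fmo5*-/- mouse 2 gave a *Trf* value of 0.15. Leaving out WT mouse 3 gave 0.39, and the threshold was not passed in any of these.

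*Aco1* (chromosome 4, 40143081 to 40198338) encodes the cytosolic aconitase that becomes iron regulatory protein 1 when it loses its iron-sulfur cluster. Its normalized counts were 16087, 15939 and 14501 in WT and 13531, 11552 and 12109 in *Fmo5*-/- mice. The lowest WT library was 1.07-fold above the highest *Fmo5*-/- library. The log2 fold change was -0.32 ± 0.09 (95% interval -0.54 to -0.11), and *Aco1* was called by DESeq2 (adjusted p = 0.0247) but not by edgeR (adjusted p = 0.10). The difference was similar in size without *Fmo5*-/- mouse 3 (-0.31 ± 0.12), which for this gene lay between the other *Fmo5*-/- mice. The 6 other genes listed with *Aco1* cover iron regulatory proteins, their regulators, mRNAs listed as bearing IREs, and *Hif1a*. Of these 6, 5 were lower (median -0.15), and edgeR called 0 (3 at an unadjusted p of 0.05, against 21.8% of all genes). *Hif1a*, a hypoxia-inducible factor, was lowest (-0.41 ± 0.10, edgeR adjusted p = 0.0727, DESeq2 0.0171), followed by *Alas2*, the erythroid form of the first enzyme of heme synthesis (-0.26 ± 0.11, edgeR adjusted p = 0.221). *Slc11a2*, which encodes the divalent metal transporter and was the only gene of the 6 above its WT mean, had 2613 ± 300 in WT and 3359 ± 372 in *Fmo5*-/- mice (0.36 ± 0.11, edgeR adjusted p = 0.113). The IRE pattern searched above was not found in *Slc11a2*, and sites in *Hif1a* were not looked up.

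**Figure D4:**
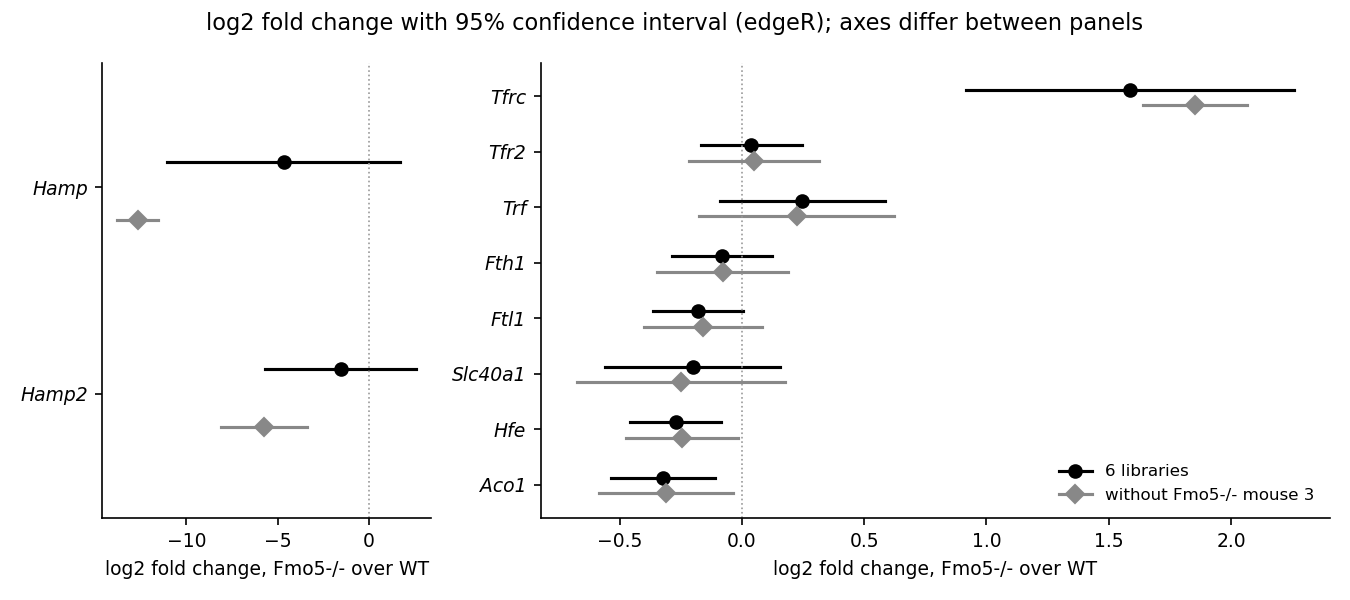
Log2 fold change of each iron gene (*Fmo5*-/- over WT) with its 95% confidence interval from edgeR, in all 6 libraries (black circles) and without *Fmo5*-/- mouse 3 (grey diamonds), on separate axes for the hepcidin genes. The interval of *Hamp* runs from -11.06 to 1.73 with all libraries, and leaving out the single library shifts and narrows *Hamp*, *Hamp2* and *Tfrc* while the other 7 genes stay within 0.05 of their value.

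Levels of the 10 mRNAs were compared per kb of the union of annotated exons and per kb of mean transcript length. Another length, chosen after seeing the data, left out exon bases shared with other genes, where reads were not counted, and changed *Trf*, *Ftl1* and *Hamp2*. The order depended on the length used. *Hamp* was at 1378 ± 381 CPM per kb (SD, n = 3) in WT mice by all 3 lengths, highest by union length and by unshared exon bases, and level with *Fth1* (1386 ± 90.2) by transcript length. *Ftl1* (375 ± 4.37) and *Fth1* (360 ± 23.4) did not differ beyond their spread by union length, and *Trf* was at 171 ± 29.0. Over unshared bases *Ftl1* was at 573 ± 6.68 and *Trf* at 468 ± 79.4, both above *Fth1*, so the order of these 3 genes is not settled. *Tfr2* (119 ± 3.68) and *Aco1* (70.7 ± 3.99) came next, in this order, by each length.

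*Hamp2* (15.8 ± 9.74), *Hfe* (14.9 ± 1.16) and *Slc40a1* (14.7 ± 3.46) did not differ beyond their spread by union length in WT mice, although many *Hamp2* reads were not counted. By transcript length *Slc40a1* stood apart, at 87.5 ± 20.6 against 28.9 ± 2.25 for *Hfe* and 21.6 ± 13.3 for *Hamp2*. *Tfrc* had the lowest mean by each length, at 3.82 ± 0.17 CPM per kb of union exons and 13.2 ± 0.59 per kb of transcript. By transcript length it was within the spread of *Hamp2*.

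In *Fmo5*-/- mice the ferritin genes and *Trf* had the 3 highest levels by each length. By union length these were *Fth1* (340 ± 8.93), *Ftl1* (331 ± 11.5) and *Trf* (203 ± 30.3). Over unshared bases *Trf* (555 ± 82.9) and *Ftl1* (506 ± 17.5) were within the spread and above *Fth1*. By transcript length *Fth1* (1309 ± 34.4) was above *Trf* (625 ± 93.4) and *Ftl1* (584 ± 20.2), which did not differ beyond their spread. *Hamp* had a mean of 54.4 ± 93.9 CPM per kb, which mixes 163 CPM per kb in mouse 3 with 0.279 and 0.138 in the others. *Tfrc* (11.5 ± 4.08 CPM per kb) was within the spread of *Hfe* (12.3 ± 0.45) and *Slc40a1* (12.8 ± 0.69) by union length. By transcript length its mean of 39.7 ± 14.1 was above that of *Hfe* (23.9 ± 0.87), with mouse 3 (23.5) within the *Hfe* range, and below that of *Slc40a1* (76.1 ± 4.12).

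Other genes of iron and heme handling were described by group. Of 15 genes of iron uptake and transport, 9 were higher and 6 lower in *Fmo5*-/- mice (median 0.02), edgeR called 0 and DESeq2 called 2 (8.96% of all genes). The 3 at an unadjusted p of 0.05 were close to the 21.8% of all genes. The largest difference was *Lcn2*, which encodes lipocalin 2, a protein that sequesters bacterial siderophores. It was 90.0, 206 and 50.1 in WT and 637, 1396 and 277 in *Fmo5*-/- mice, with no overlap (2.75 ± 0.84, edgeR adjusted p = 0.163, DESeq2 0.0224). *Hpx*, the plasma heme scavenger hemopexin, named after its values were seen, was the other DESeq2 call (0.51 ± 0.12, edgeR adjusted p = 0.0662, DESeq2 0.00152). Without *Fmo5*-/- mouse 3 edgeR called 1 of the 15, *Hpx* (0.57 ± 0.13, adjusted p = 0.0493), against 4.45% of all genes. *Scara5*, a ferritin receptor, was at 0.58 ± 0.67, and the lowest genes were *Steap1*, a metalloreductase family gene of few counts (-0.37 ± 0.42), and *Heph*, a ferroxidase (-0.31 ± 0.24).

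Among 8 genes of heme breakdown and export, edgeR called 1 (1.37% of all genes) and DESeq2 called 2 (8.96%), and the 2 at an unadjusted p of 0.05 were near the 21.8% of all genes. *Flvcr2*, a transporter of the family of heme exporters, rose in *Fmo5*-/- mice, with normalized counts of 174, 152 and 128 in WT and 323, 308 and 244 in *Fmo5*-/- mice. The genotypes did not overlap, and the log2 fold change was 0.95 ± 0.17 (edgeR adjusted p = 0.0430). *Abcg2*, an exporter of porphyrins and drugs, was 5461, 5905 and 5038 in WT and 4285, 3852 and 3896 in *Fmo5*-/- mice (-0.45 ± 0.09, edgeR adjusted p = 0.0509, DESeq2 0.00102). *Hmox1*, the inducible heme oxygenase, was at 0.41 ± 0.19 (adjusted p = 0.266) and *Flvcr1*, the other transporter of the family, at -0.10 ± 0.17. Of 8 genes of heme synthesis, 5 were lower (median -0.17), and neither edgeR (3 at an unadjusted p of 0.05, against 21.8% of all genes) nor DESeq2 called any. *Alas1*, the first and rate-limiting enzyme in liver, varied most between mice of 1 genotype, at 2462, 28775 and 3771 in WT and 4166, 7283 and 10424 in *Fmo5*-/- mice (-0.68 ± 1.10, edgeR adjusted p = 0.781). *Cpox*, a later enzyme of the pathway, was at -0.29 ± 0.12, and *Ppox* and *Alad* were at 0.18 ± 0.10 and 0.10 ± 0.08. Of 19 tested genes of mitochondrial iron and iron-sulfur cluster assembly, 13 were lower, and the highest value was 0.26 (*Mms19*, a factor of cytosolic cluster delivery). EdgeR called 0 of the 19, as did DESeq2, and their median was -0.08. The 4 at an unadjusted p of 0.05 were close to the 21.8% of all tested genes.

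**Figure D5:**
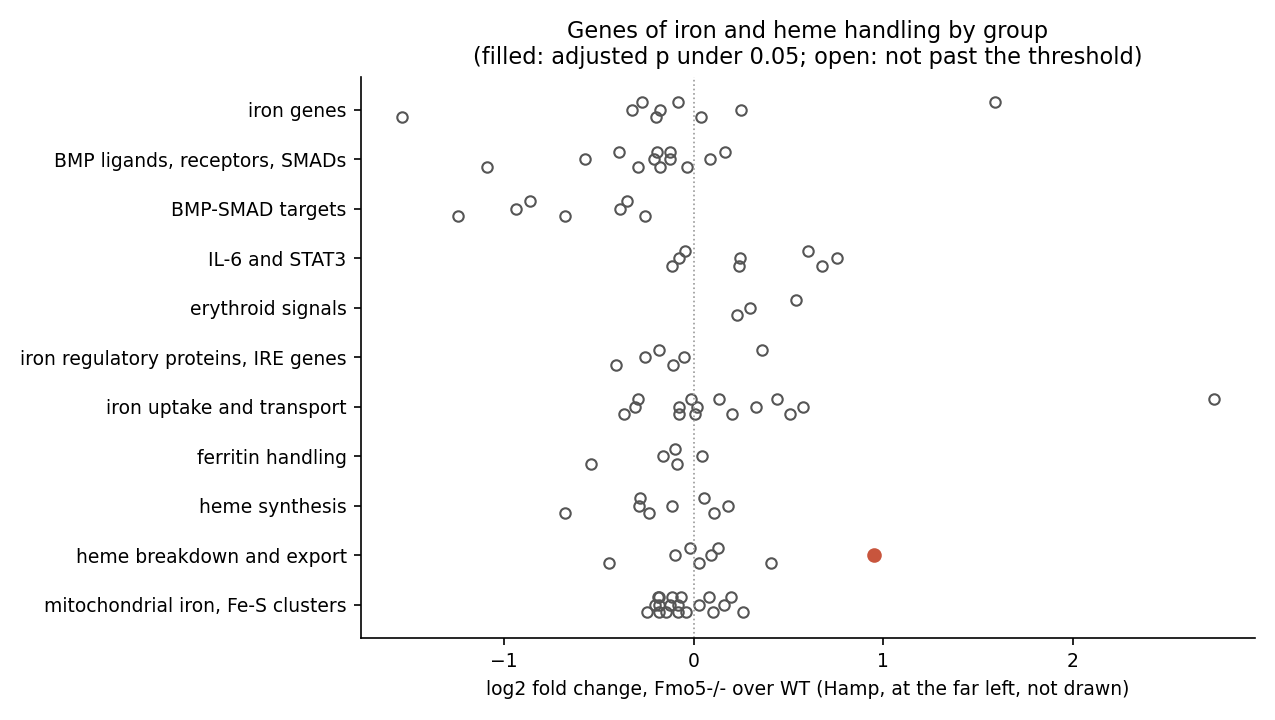
Log2 fold change (*Fmo5*-/- over WT, edgeR) of every tested gene in 11 groups of iron and heme genes, with *Hamp* left out of the drawing, filled where the adjusted p was below 0.05. All 7 BMP-SMAD targets lie left of 0, *Lcn2* (2.75) and *Tfrc* (1.59) lie farthest right, and *Flvcr2* is the only filled point.

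The genes next to *Hamp* on chromosome 7 were examined after its values were seen. Of the other tested genes within 100000 bp, *Usf2*, 1216 bp away and encoding an upstream stimulatory factor, was 2120 ± 157 in WT and 1715 ± 147 in *Fmo5*-/- mice (-0.31, edgeR adjusted p = 0.108). *Lsr*, 13738 bp away, had 3421 ± 304 and 3428 ± 850 (0.00, adjusted p = 0.994), and *Fxyd5*, 88690 bp away, 146 ± 8.36 and 269 ± 110 (0.88, adjusted p = 0.110). The log2 fold changes of the 8 tested neighbours other than *Hamp2* lay between -0.31 and 1.36, against -4.66 for *Hamp*, and edgeR called 0 of the 8 (4 at an unadjusted p of 0.05, against 21.8% of all genes) and DESeq2 called 1, *Fxyd5* (adjusted p = 0.0158), against 8.96%.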

How the data were processed

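Liver RNA of 3 WT and 3 *Fmo5*-/- mice was sequenced as single reads of 75 bases on a NextSeq 500 after mRNA library preparation. The authors aligned reads to mm10 with STAR (version 2.6.0c), which gave the deposited counts of reads per gene, and used DESeq2 (version 1.22.2) with a limit of 500 on the mean count. The annotation release was not given in the sources used here. Of 54446 gene IDs listed, 54409 were in GENCODE vM21, which supplied symbols, positions and lengths. The library did not mark strand (49.9% to 50.1% of strand-specific counts on the first strand), so the count over both strands was used, and the deposited counts for each strand, another kind of value per the file headers, served only for alternatives. The deposited normalized values (signal) of the authors are the counts divided by 1 factor per library and were not tested, and the authors' own fold changes, p-values and log2 values were not used.

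Genes with enough counts (edgeR 4.0.16 filterByExpr, minimum count 10) numbered 16734. Counts were scaled by TMM and tested with edgeR's robust quasi-likelihood test on genotype alone, with Benjamini-Hochberg adjustment over all 16734 genes and a threshold of 0.05. R 4.3.3 and Python 3.11.15 were used. Normalized counts are counts over the TMM library size times its mean. The CPM with counting intervals are relative to all counts on genes, and summed markers and levels per kb to the TMM library size. The common biological coefficient of variation was 15.0%. Scripts were tested on simulated data. Of 153 listed symbols, 152 were found. Named are *Fmo5*, the 10 iron genes, and from each list the called genes and the 2 highest and 2 lowest, with exceptions stated; not every gene that this rule names is reported here. The members and lists were chosen with earlier results of these data known. Alternatives were DESeq2 1.42.0, other scalings and filters, 1 strand, summed copies, mean transcript length, unshared exon bases (added after seeing the data) and each library left out. Each mouse is 1 library, and counting intervals cover counting error only.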

Additional observations from a re-analysis of the deposited data

How the results depend on the processing

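No paired analysis was possible because the labels give no replicate numbers and nothing links a WT mouse to an *Fmo5*-/- mouse. The count of iron genes called was 0 in the main analysis, 2 with DESeq2 and 1 with no filter on low counts, and ranged from 0 to 3 when each library was left out in turn (3 without *Fmo5*-/- mouse 3). Leaving out 1 library gave log2 fold changes of -12.65 to -4.08 for *Hamp*, -5.74 to -0.93 for *Hamp2* and 1.40 to 1.85 for *Tfrc*, each of which passed the threshold without *Fmo5*-/- mouse 3 only. *Tfrc* also passed it with DESeq2 (1.57), and *Aco1* with DESeq2 (-0.34) and with no filter (-0.34, adjusted p = 0.0228). *Tfr2* turned to -0.025 without *Fmo5*-/- mouse 1, in a range of -0.025 to 0.085. The other iron genes kept direction and side of the threshold in all alternatives, and so did *Fmo5* (-5.10 to -4.91). Over all genes the calls were 229, and 1395 with DESeq2, 1989 with no filter, 53 with the mean limit of 500 and 31 to 763 with 1 library left out. The median of the BMP-SMAD targets ranged from -0.94 to -0.48 with 1 library left out, and that of the erythroid markers from -0.28 (without *Fmo5*-/- mouse 1) to 0.58. With 1 library left out, the median of the BMP-SMAD pathway genes ranged from -0.25 to -0.11. That of the interleukin 6 and STAT3 genes ranged from 0.061 (without *Fmo5*-/- mouse 1) to 0.34. Heme synthesis genes had medians of -0.20 to -0.028 (without WT mouse 2). Medians of the genes listed with *Aco1* ranged from -0.23 to -0.086, and those of iron uptake and transport from -0.027 to 0.14. The median of mitochondrial iron genes was -0.099 with DESeq2 and -0.050 with the mean limit. With reads of 1 strand the share of *Hamp2* was 3.74%, 1.98% and 2.04% in WT mice and 91.7%, 66.7% and 19.1% in *Fmo5*-/- mice. With mean transcript length, WT levels were 13.2 CPM per kb for *Tfrc*, 309 for *Tfr2*, 527 for *Trf*, 1386 for *Fth1*, 662 for *Ftl1*, 87.5 for *Slc40a1*, 28.9 for *Hfe* and 227 for *Aco1*, which puts *Fth1* level with *Hamp*. Over exon bases not shared with other genes, chosen after seeing the data, *Trf* was at 468 and *Ftl1* at 573. The shifts in level per kb come from dividing the same counts by another length. For the share of *Hamp2* with reads of 1 strand, WT mouse 1 had 638 *Hamp2* and 16420 *Hamp* counts, against 708 and 31134 over both strands. The cause of the other shifts was not tested. Depth limits *Hamp* and *Hamp2* in *Fmo5*-/- mice 1 and 2, where 3 counts equal 0.0573 and 0.0611 CPM, and *Erfe*, *Epo* and *Ftmt* in all libraries.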
